A study of Homo sapiens with 4 samples.

Results

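Histone lysine methyltransferases place methyl groups on lysines of histone tails and demethylases take them off. Members were chosen by gene symbol alone, as the numbered or lettered KDM, KMT, SETD, PRDM and SMYD genes, NSD1 to NSD3, EHMT1 and EHMT2, SUV39H1 and SUV39H2, and DOT1L. These were 62 of the 15357 genes in the deposited table, and 59 of them were among the 11955 genes with enough reads to be tested. The 3 members that were not tested were PRDM13, with 0 counts in every sample, PRDM6, with 0 and 1 counts in the vector samples and 1 and 3 in the shCHD7_2 samples, and PRDM7, with 1 and 0 counts in each group. The symbols SETDB2 and SETDB2-PHF11 describe a gene and a read-through transcript of that gene, and they are treated as uncertain below.

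RNA was sequenced from RKO, a human colorectal cancer cell line of the colon, in 2 samples infected with a control lentivirus (vector) and 2 samples infected with a lentivirus carrying a short hairpin RNA against CHD7 (shCHD7_2). CHD7 is a chromodomain helicase that remodels nucleosomes, and both groups were stably infected cells without any further treatment. Only 1 hairpin and 1 cell line were sequenced, so an effect of this hairpin and an effect of CHD7 loss cannot be told apart. The labels do not say whether the 2 samples of a group came from separate cultures or infections, and p-values then measure the spread between these samples, which may be technical.

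Writers and erasers of histone methylation act on particular lysines, and some act on more than 1. Methylation of histone H3 lysine 4 (H3K4) is placed by the KMT2 and SETD1 proteins within the COMPASS complexes and marks promoters and enhancers, H3K9 methylation by the SUV39H, EHMT and SETDB proteins marks silenced chromatin, H3K36 methylation by SETD2 and the NSD proteins accompanies transcribed gene bodies, and H4K20 methylation by the KMT5 proteins is tied to replication and chromatin compaction. Most of these enzymes share a catalytic SET domain, with DOT1L, the H3K79 methyltransferase, as the exception. Demethylases fall into the amine oxidases KDM1A and KDM1B and the larger family with a Jumonji C (JmjC) domain. PRDM proteins are zinc-finger transcription regulators with a SET-like domain, and for many of them no methyltransferase activity is established.

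Estimated read counts summed to between 15734679 and 16068650 per sample, and the values below are these counts, CPM (counts scaled to the size of the library, with TMM scaling), or the authors' FPKM values, which are also scaled by transcript length. CHD7 had 85.4 and 91.0 CPM in the vector samples and 55.5 and 50.1 CPM in the shCHD7_2 samples. Its log2 fold change was -0.74 (SE 0.0884, edgeR adjusted p = 4.15e-06), so some CHD7 mRNA remained. Of 8 epithelial and colon markers looked for, KRT19, VIL1 and CDX1 were not in the deposited table. KRT18, KRT8, EPCAM and CDX2 were measured at 10.2 CPM or more in every sample, while CDH1 had at most 1 count. The endothelial and fibroblast markers measured, PECAM1, VWF, COL1A1 and LUM, had at most 7 counts in any sample. CD68, a lysosomal protein listed as a blood marker, had between 850 and 1024 CPM, higher in both shCHD7_2 samples than in both vector samples, and its part in the results was not tested. In bulk RNA, fewer cells that make a transcript and less of it per cell cannot be told apart.

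Most members differed little between the groups. Of the 59 tested, 9 (15.3%) had an adjusted p under 0.05 in edgeR's quasi-likelihood test, 3 of them higher and 6 lower in shCHD7_2 cells, against 11.5% of all tested genes, 4.94% higher and 6.54% lower. Only PRDM1, higher, and SETD9, lower, also changed by at least 1.5-fold, the threshold for a call. These 2 members are 3.39% of the 59, and 2.88% of all tested genes were called, 1.51% higher and 1.37% lower. The other 7 included PRDM8 and KDM1B, which rose, and KDM7A, EHMT2, SMYD3 and SETDB2, which fell.

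The median log2 fold change of the members was 0.021, and 32 were above 0 and 27 below it. For 49 of the 59 members (83.1%) the 95% interval of the fold change lay within 1.5-fold in both directions, as it did for 80.5% of all tested genes. The groups did not overlap for 29 members (49.2%), 14 higher and 15 lower in both shCHD7_2 samples, against 53.7% of all tested genes. Summed over all members, the vector samples held 4165 and 4303 CPM and the shCHD7_2 samples 4336 and 4078 CPM, so the groups overlapped.

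**Figure D1:**
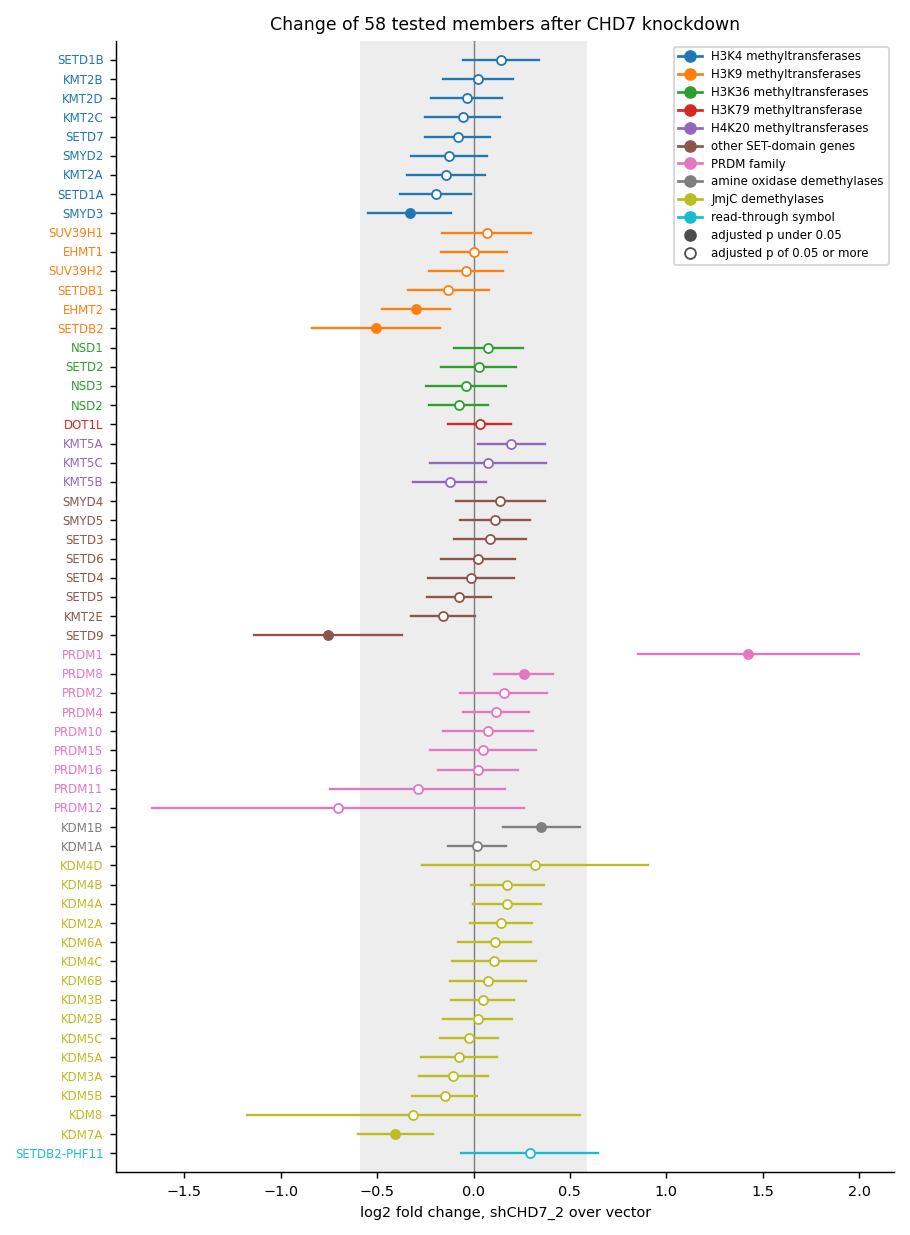
Log2 fold change of 58 tested members, shCHD7_2 over vector, with its 95% interval as a bar, coloured by the residue or family of the enzyme, and the range within 1.5-fold in grey. The 8 filled points had an adjusted p under 0.05, and only PRDM1 on the right and SETD9 on the left of them lie beyond the grey range, as does the unfilled PRDM12 with its wide interval.

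**Figure D2:**
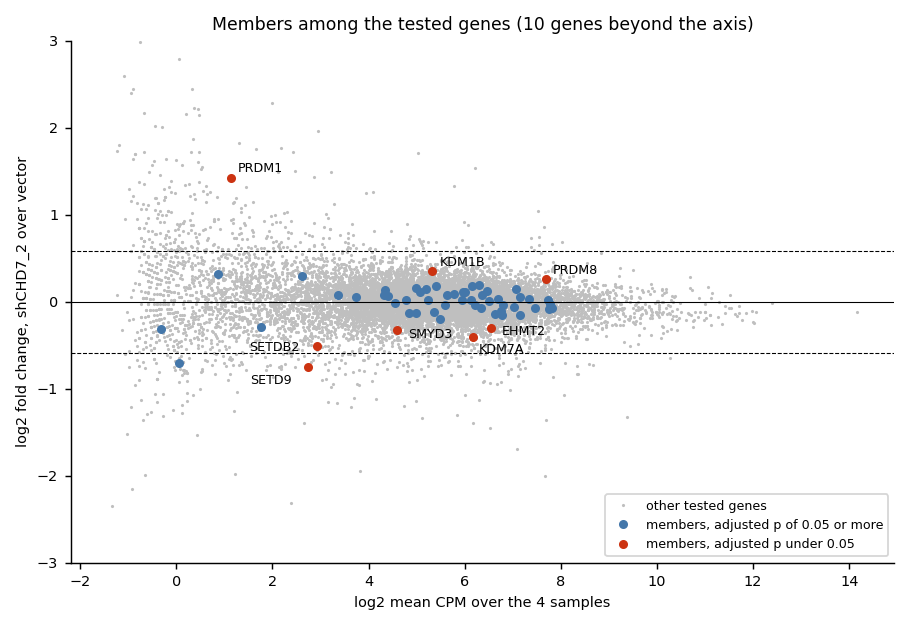
Log2 fold change (shCHD7_2 over vector, vertical axis) against log2 mean CPM over the 4 samples (horizontal axis) for the tested genes, with 58 members in colour, dashed lines at 1.5-fold and 10 genes beyond the axis. The 8 members shown in red as past the threshold span low and high expression, from PRDM1 at 1.14 to 3.43 CPM to PRDM8 at 187 to 227 CPM.

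The members spanned a wide range of levels, with a median of 9.92 FPKM against 12.8 FPKM for all tested genes. KDM1A (LSD1), which demethylates H3K4 as part of the CoREST complex, was the highest, at 70.5 and 71.7 FPKM in the vector samples and 74.6 and 73.5 FPKM in the shCHD7_2 samples. PRDM8 came next, followed by KDM5C, SETD7 and NSD2 with means over the 4 samples of 38.9, 33.7 and 32.2 FPKM. SETD7 and NSD2 overlapped in their levels, whereas KDM1A, PRDM8 and KDM5C did not overlap with each other or with SETD7. At the other end were KDM8, PRDM12 and PRDM1, with means of 0.338, 0.44 and 0.46 FPKM and levels that overlapped. PRDM12 had 31 and 9 counts in the vector samples and 10 and 15 in the shCHD7_2 samples, and KDM8 had 16 and 12 counts and then 11 and 12, and their log2 fold changes had 95% intervals from -1.67 to 0.26 and from -1.18 to 0.55. PRDM12 passed only without vector replicate 2 (log2 fold change -1.35, edgeR adjusted p = 0.0433), and was on the other side of 0, at 0.45, without vector replicate 1.

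**Figure D3:**
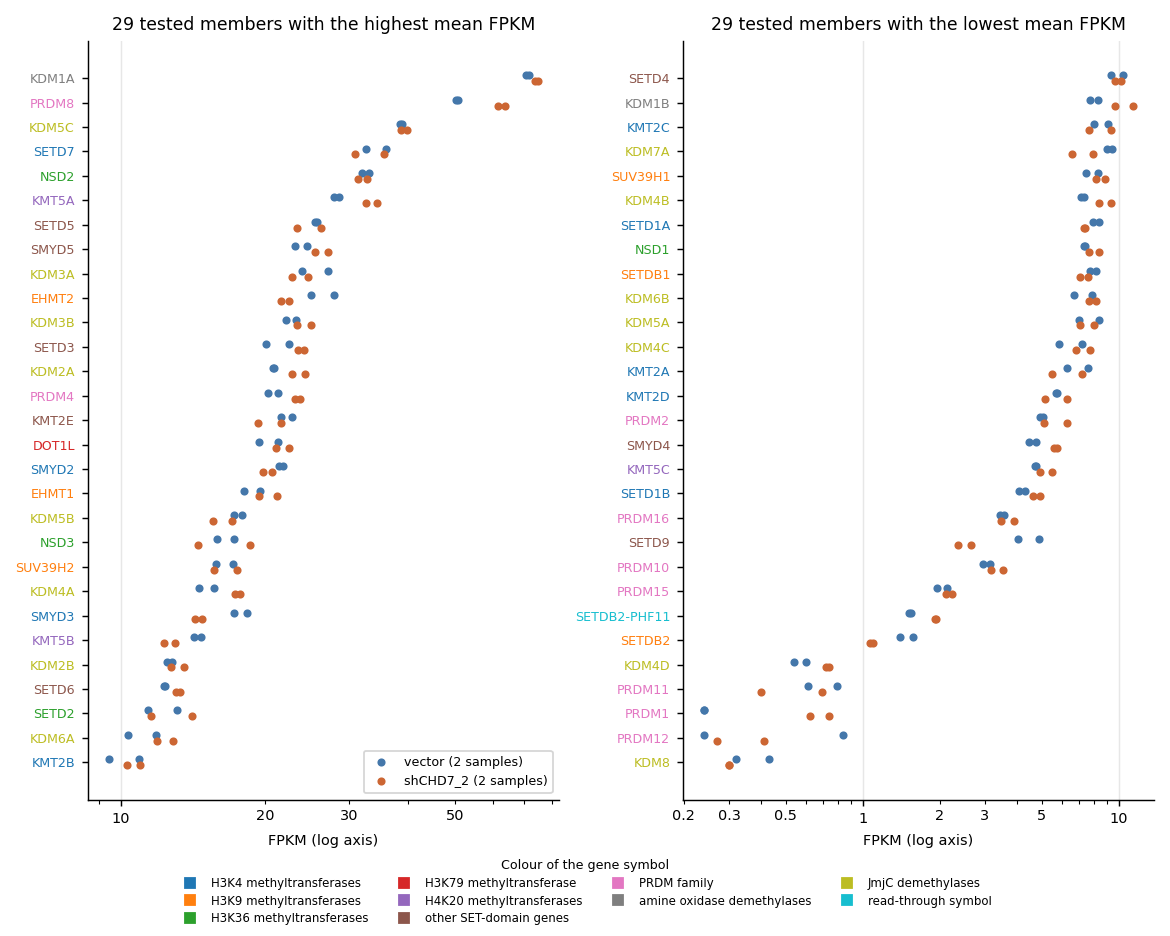
FPKM in each sample on a log axis for 58 tested members, split into the 29 highest and the 29 lowest, with 2 vector samples (blue) and 2 shCHD7_2 samples (orange) per gene. KDM1A is the highest at 70.5 to 74.6 FPKM, and for most genes the blue and orange points lie close together or overlap.

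PRDM7 was counted with the H3K4 methyltransferases, and of the rest of the PRDM family 12 members were in the table and 10 were tested. Of these 10, PRDM1 and PRDM8 rose past the test, against 4.94% of all tested genes that were higher. PRDM1 (BLIMP1), a transcriptional repressor known for terminal differentiation of B cells and lying at chr6:106086320-106109939 (GRCh38), had 19 and 18 counts in the vector samples and 55 and 47 counts in the shCHD7_2 samples. The groups were well apart, though from few reads. Its log2 fold change was 1.43 (SE 0.277, edgeR adjusted p = 0.00129), a 2.69-fold rise, and it stayed between 1.31 and 1.53 in the 4 fits that each left out 1 sample, passing in all of them. On the level scale PRDM1 remained one of the lowest members, at 0.74 and 0.62 FPKM in shCHD7_2 cells.

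PRDM8, a repressor with roles in neural development (chr4:80183879-80204329), was abundant and measured with small spread. It had 188 and 187 CPM in the vector samples and 223 and 227 CPM in the shCHD7_2 samples. This was a rise of 0.26 on the log2 scale (SE 0.0736, edgeR adjusted p = 0.0225), or 1.20-fold. Without vector replicate 1 the adjusted p was 0.19 and without vector replicate 2 it was 0.273, at log2 fold changes of 0.26 and 0.25. The summed level of the PRDM family was 91.3 and 93.3 FPKM in the vector samples and 107 FPKM in both shCHD7_2 samples. PRDM8 made up most of the FPKM sum in each sample. In CPM, which is scaled differently, the family summed to 389 and 396 in the vector samples and 441 and 431 in the shCHD7_2 samples.

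The family members PRDM2, PRDM4, PRDM10, PRDM15 and PRDM16 had log2 fold changes between 0.024 and 0.16, and PRDM11, at 45 to 59 counts, had -0.29, none of them past the test.

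The SET-domain genes without an agreed histone residue held 1 change among 8 (12.5%, against 11.5% of all tested genes). SETD9, a little-studied SET-domain gene (chr5:56909260-56925532), had 143 and 118 counts in the vector samples and 90 and 68 counts in the shCHD7_2 samples. In CPM these were 9.21 and 7.47 against 5.61 and 4.26, so the groups did not overlap, although replicate 1 lay above replicate 2 in both groups. The log2 fold change was -0.75 (SE 0.184, edgeR adjusted p = 0.00854), a 1.69-fold fall. The call was lost without vector replicate 1 (log2 fold change -0.60, edgeR adjusted p = 0.098) and without shCHD7_2 replicate 2 (-0.57 and 0.0685), and DESeq2 on all 4 samples did not pass it either (-0.75, DESeq2 adjusted p = 0.0859). KMT2E, SETD3 (which methylates actin), SETD4, SETD5, SETD6 (which methylates the NF-kB subunit RELA), SMYD4 and SMYD5 had log2 fold changes between -0.16 and 0.14. Exons of SETD9 overlap those of an antisense gene, AC008937.1, by 219 bases, and since the library's strand is not stated, reads of the pair cannot be told apart there.

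**Figure D4:**
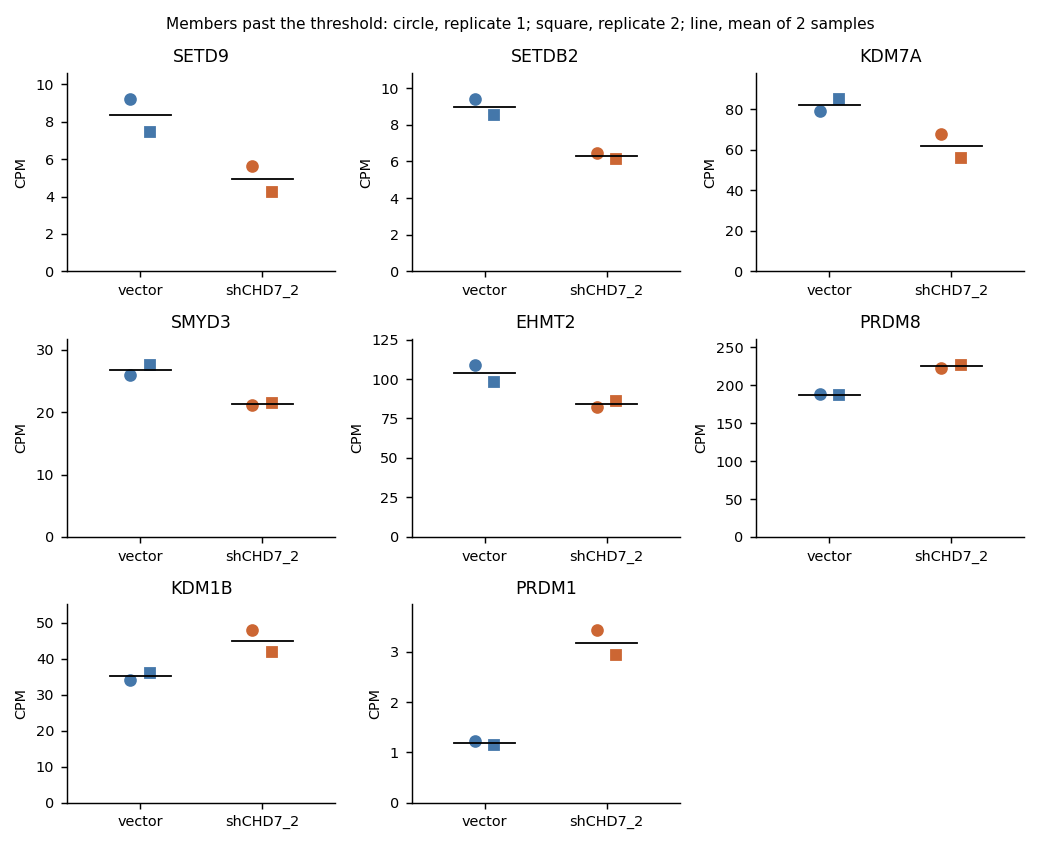
CPM in each sample for 8 members with an adjusted p under 0.05, with replicate 1 as a circle, replicate 2 as a square and the mean of the 2 samples of a group as a line; each vertical axis starts at 0. The groups do not overlap in any panel, and relative to the level the gap is widest for PRDM1.

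Demethylases numbered 17, with 1 rise and 1 fall (11.8%, against 11.5% of all tested genes). KDM1B (LSD2), the second amine oxidase and an H3K4 demethylase of gene bodies and oocytes (chr6:18155329-18223853), had 34.1 and 36.2 CPM in the vector samples and 47.9 and 41.8 CPM in the shCHD7_2 samples. It rose by 0.35 on the log2 scale (SE 0.0965, edgeR adjusted p = 0.0181). Its adjusted p was 0.162 without vector replicate 1, 0.0638 without vector replicate 2 and 0.141 without shCHD7_2 replicate 1, with log2 fold changes of 0.31, 0.40 and 0.25. KDM1A, in contrast, had a log2 fold change of 0.02 with a 95% interval from -0.13 to 0.17. KDM1B made up 9.9% and 10.4% of the summed FPKM of the pair in the vector samples and 13.2% and 11.6% in the shCHD7_2 samples, with the rest from KDM1A.

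Among the 15 JmjC demethylases, 1 (6.67%, against 11.5% of all tested genes) passed the test with all 4 samples and TMM scaling. KDM7A, which removes methyl groups from H3K9 and H3K27 (chr7:140084746-140177035), had 1226 and 1342 counts in the vector samples and 1088 and 893 counts in the shCHD7_2 samples. Both shCHD7_2 samples lay below both vector samples. It fell by 0.41 on the log2 scale (SE 0.0947, edgeR adjusted p = 0.00611), or 1.32-fold. The shCHD7_2 samples differed from each other by 0.28 on the log2 scale. Without shCHD7_2 replicate 2 the log2 fold change was -0.27 (edgeR adjusted p = 0.0775), without shCHD7_2 replicate 1 it was -0.56, and without vector replicate 2 it was -0.35 (edgeR adjusted p = 0.0862).

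The H3K36 demethylases KDM2A and KDM2B had log2 fold changes of 0.14 and 0.02, and the H3K9 demethylases KDM3A and KDM3B had -0.11 and 0.05. Of the KDM4 genes, which act on H3K9 and H3K36, KDM4A, KDM4B and KDM4D were higher in both shCHD7_2 samples than in both vector samples without passing the test. The groups did not overlap for 8 of the 15 JmjC demethylases (53.3%), 4 higher and 4 lower, against 53.7% of all tested genes. KDM4A had 68.7 and 64.1 CPM against 75.3 and 74.5 CPM, KDM4B had 40.6 and 39.0 against 46.4 and 43.6, and KDM4D had 24 and 27 counts against 32 and 33. Their log2 fold changes were 0.17, 0.18 and 0.32, and that of KDM4C was 0.11. KDM4A made up 51.4% ± 2.73 of the summed FPKM of the KDM4 genes in the vector samples and 51.1% ± 1.52 in the shCHD7_2 samples (mean ± SD, n = 2), a difference smaller than the spread.

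The H3K4 demethylases KDM5A, KDM5B and KDM5C had log2 fold changes of -0.08, -0.15 and -0.02, and KDM5C held 60.4% ± 1.22 of their summed FPKM in the vector samples and 62.2% ± 1.20 in the shCHD7_2 samples. The H3K27 demethylases KDM6A (UTX) and KDM6B (JMJD3) had log2 fold changes of 0.11 and 0.08, with intervals of -0.08 to 0.30 and -0.12 to 0.27. In sum, the demethylases held 277 and 287 FPKM in the vector samples and 302 and 286 FPKM in the shCHD7_2 samples.

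Methyltransferases with a named residue numbered 23 among those tested, and 3 (13%) fell, 2 of them among the 6 writers of H3K9 methylation. Of all tested genes 11.5% passed the test, and 6.54% of all tested genes passed it as lower. EHMT2 (G9a), which places H3K9 methyl groups in euchromatin as a dimer with EHMT1 (GLP), had 109 and 98.1 CPM in the vector samples and 82.1 and 86.2 CPM in the shCHD7_2 samples. It fell by 0.30 on the log2 scale (SE 0.085, edgeR adjusted p = 0.0232), or 1.23-fold. EHMT1 had 93.1 and 88.1 CPM against 89.1 and 92.6 CPM, overlapping, with a log2 fold change of 0.003 and a 95% interval from -0.17 to 0.17. In FPKM, EHMT1 had 19.5 and 18.1 in the vector samples and 19.4 and 21.2 in the shCHD7_2 samples. EHMT2 made up 58.8% and 58.0% of the pair's summed FPKM in the vector samples and 52.7% and 51.5% in the shCHD7_2 samples. The fall did not pass without vector replicate 1 (log2 fold change -0.22, edgeR adjusted p = 0.331), without vector replicate 2 (-0.37 and 0.0538) or without shCHD7_2 replicate 1 (-0.27 and 0.0516). EHMT2 lies at chr6:31879759-31897687, where 592 bases of its exons overlap those of the antisense gene EHMT2-AS1.

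SETDB2, an H3K9 methyltransferase (chr13:49444374-49495003), had 146 and 135 counts in the vector samples and 104 and 98 counts in the shCHD7_2 samples. Its log2 fold change was -0.51 (SE 0.161, edgeR adjusted p = 0.0431), and it did not pass in any of the 4 fits that left out 1 sample, with edgeR adjusted p values of 0.237, 0.102, 0.0509 and 0.136 without vector replicates 1 and 2 and shCHD7_2 replicates 1 and 2. The read-through SETDB2-PHF11, which shares its sequence, had 86 counts in each vector sample and 108 and 107 counts in the shCHD7_2 samples, a log2 fold change of 0.29 that did not pass (edgeR adjusted p = 0.305). The 2 symbols together had 232 and 221 counts in the vector samples and 212 and 205 in the shCHD7_2 samples. Their summed CPM was 14.5 ± 0.668 in the vector samples and 13.0 ± 0.264 in the shCHD7_2 samples (mean ± SD, n = 2), a log2 ratio of -0.15. The read-through symbol took 37.1% and 38.9% of these counts in the vector samples and 50.9% and 52.2% in the shCHD7_2 samples. The part that the division of reads between the 2 symbols has in the fall of SETDB2 was not tested. PHF11 itself had a log2 fold change of -0.07.

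The other H3K9 writers SETDB1, SUV39H1 and SUV39H2 had log2 fold changes of -0.13, 0.07 and -0.04, none past the test. SUV39H2 held 67.7% ± 2.81 of the summed FPKM of the SUV39H pair in the vector samples and 66.1% ± 3.06 in the shCHD7_2 samples, within the spread. The H3K9 writers together had 80.8 and 77.3 FPKM in the vector samples and 75.5 and 76.3 FPKM in the shCHD7_2 samples.

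Among 9 tested H3K4 methyltransferases, 1 passed (11.1%, against 11.5% of all tested genes). SMYD3, a SET and MYND domain protein reported to methylate H3K4 and also the kinase MAP3K2 (chr1:245749342-246507312), had 26.0 and 27.6 CPM in the vector samples and 21.1 and 21.4 CPM in the shCHD7_2 samples. Replicates were close in both groups. It fell by 0.33 on the log2 scale (SE 0.104, edgeR adjusted p = 0.0397), or 1.26-fold, and missed the threshold in each of the 4 fits without 1 sample, with edgeR adjusted p values of 0.09, 0.331, 0.0729 and 0.0819 without vector replicates 1 and 2 and shCHD7_2 replicates 1 and 2. SMYD2 had a log2 fold change of -0.13 and SETD7 of -0.08.

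SETD1A and SETD1B, the catalytic subunits of the SET1 COMPASS complexes, had log2 fold changes on either side of 0. SETD1A had 48.5 and 46.6 CPM in the vector samples and 41.3 and 41.7 CPM in the shCHD7_2 samples, a log2 fold change of -0.20 (edgeR adjusted p = 0.166). SETD1B had 35.7 and 33.9 CPM in the vector samples and 37.0 and 39.9 CPM in the shCHD7_2 samples, a log2 fold change of 0.14 (edgeR adjusted p = 0.365). Neither passed the test. SETD1A made up 66.0% and 66.2% of the summed FPKM of the pair in the vector samples and 61.5% and 59.9% in the shCHD7_2 samples.

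The 4 KMT2 genes (MLL1 to MLL4) had log2 fold changes of -0.14 for KMT2A, 0.02 for KMT2B, -0.06 for KMT2C and -0.04 for KMT2D, and their groups overlapped. These are among the longest transcripts of the set, and they differed between replicates. KMT2A had 96.5 and 111 CPM in the vector samples and 104 and 83.5 CPM in the shCHD7_2 samples, and KMT2C had 124.9 and 142.5 against 142.2 and 114.9 CPM. In both genes vector replicate 2 was higher than replicate 1 and shCHD7_2 replicate 2 was lower. KMT2D was level in the vector samples, at 113.1 and 112.9 CPM, with 121 and 99.4 CPM in the shCHD7_2 samples. KMT2B went the other way, with 73.0 and 66.3 CPM in the vector samples and 68.6 and 72.9 CPM in the shCHD7_2 samples. Among the fits that left out 1 sample, KMT2A passed without shCHD7_2 replicate 1 (log2 fold change -0.32, edgeR adjusted p = 0.017), and without shCHD7_2 replicate 2 its log2 fold change was 0.009.

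A higher vector replicate 2 and a lower shCHD7_2 replicate 2 tended to go with a longer transcript. Transcript length is here that of the GENCODE transcript with the longest coding sequence. Over the 10 members of 8 kb or longer with at least 5 CPM in the vector samples, the median log2 ratio of replicate 2 to replicate 1 was 0.12 in the vector samples and -0.27 in the shCHD7_2 samples, where 9 of 10 were below 0. Over the other 43 members it was 0.034 and -0.057. Over all 725 tested genes of 8 kb or longer at that CPM it was 0.081 and -0.14, with 611 below 0 in the shCHD7_2 samples. Across the 53 members, Spearman's rho of transcript length with this ratio was 0.219 in the vector samples and -0.434 in the shCHD7_2 samples, and across 10337 genes it was 0.255 and -0.478. Genes are not independent replicates, and all points share the same libraries. KDM7A, with a transcript of 9272 bases, had ratios of 0.11 and -0.28, and the part of this pattern in its fall was not tested. Length was less related to the fold change itself, with a rho of -0.136 over the members.

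**Figure D5:**
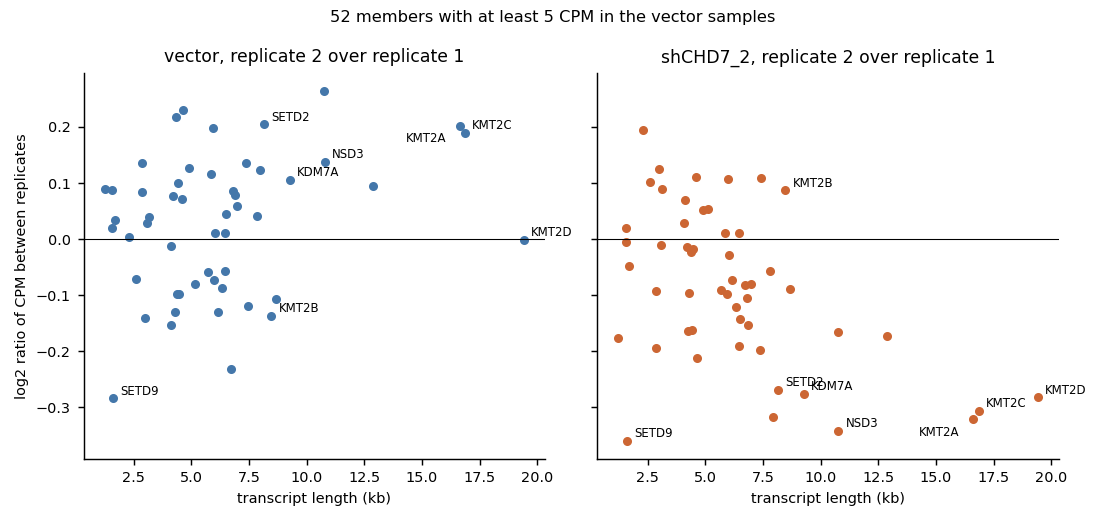
Log2 ratio of CPM between replicate 2 and replicate 1 (vertical axis) against transcript length in kb (horizontal axis) for 52 members, in the vector samples (left) and the shCHD7_2 samples (right). KMT2A, KMT2C, NSD3, SETD2 and KDM7A lie above 0 on the left and below 0 on the right, and KMT2B lies on the opposite sides.

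The 4 H3K36 methyltransferases gave no member past the test in edgeR with all 4 samples and TMM scaling or in DESeq2, and none had an unadjusted p under 0.05. SETD2, which places H3K36 trimethylation, had 95.1 and 110 CPM in the vector samples and 114 and 94.6 CPM in the shCHD7_2 samples. NSD1, NSD2 and NSD3 had log2 fold changes of 0.08, -0.08 and -0.04. NSD2, known as an oncogene in multiple myeloma, was the most abundant of them at 31.3 to 33.1 FPKM and held 57.7% ± 0.429 of the summed FPKM of the NSD genes in the vector samples and 56.7% ± 2.67 in the shCHD7_2 samples. DOT1L had 167 and 154 CPM against 158 and 170 CPM, overlapping, with a log2 fold change of 0.03 and a 95% interval from -0.13 to 0.20.

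The H4K20 writers also held no member past the test in edgeR with all 4 samples and TMM scaling or in DESeq2. In edgeR 1 of 3, KMT5A, had an unadjusted p under 0.05, as had 11 of 59 members and 3035 of 11955 tested genes. KMT5A (SET8), which places the first methyl group on H4K20, had 72.7 and 74.7 CPM in the vector samples and 81.8 and 87.0 CPM in the shCHD7_2 samples, a log2 fold change of 0.20 (edgeR adjusted p = 0.143). KMT5B (SUV420H1), which adds further methyl groups, had 41.0 and 44.5 against 39.1 and 39.4 CPM, with a log2 fold change of -0.12 (edgeR adjusted p = 0.431). KMT5A made up 59.5% of the summed FPKM of the 3 KMT5 genes in the vector samples, with 59.5% and 59.6% in single samples, and 65.4% and 65.1% in the shCHD7_2 samples, and KMT5B went from 30.4% and 30.6% to 24.7% and 24.5%. KMT5C held 10.0% ± 0.225 and 10.2% ± 0.342 (mean ± SD, n = 2). These shares were not tested, and each enters the sum that the others are divided by.

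The longest annotated 3′ UTRs of the members were searched for 3 words of 7 bases (the word AGCTATT, the word GAAGCTA and the word GCTATTA), which an earlier analysis of these same samples had picked out because genes holding them were lower in shCHD7_2 cells. They are therefore no independent evidence of a direction here. Only the transcript strand was searched, and the first and the last of these overlap by all but 1 base, so that AGCTATTA holds both. Of 58 tested members with an annotated 3′ UTR, 12 held at least 1 word (20.7%), against 22.1% of the 11676 tested genes with one. Members with a word had a median log2 fold change of -0.067 and those without 0.023, and all such genes had medians of -0.080 and 0.021.

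Of the members that fell, SETD9 and KDM7A held a word, and the 3 that rose held none. SETD9 has a 3′ UTR of 333 bases, and 4.21% of the 1212 genes with a 3′ UTR of 70% to 130% of that length held a word. KDM7A has one of 6348 bases, and 60.5% of the 970 genes with similar lengths did. The sites are shown because they are the places where the words fall in members that changed, with the words in capitals, in GENCODE 29 transcripts (GRCh38), SETD9 on the plus strand and KDM7A on the minus strand.
SETD9, chr5:56916929-56916952: ttctactcAGCTATTAattctaag
KDM7A, chr7:140090445-140090468: tttttataAGCTATTAgcttcgct
KDM7A, chr7:140090696-140090718: ttttttaaAGCTATTtatttgga
KDM7A, chr7:140086868-140086890: cataaagaGAAGCTAgagctcac
The words were absent from the 3′ UTRs of EHMT2, SMYD3 and SETDB2. Members with a word that did not pass the test were KDM3B, KDM5B, KMT2C, KMT5B, NSD1, PRDM10, SETD5, SETD7, SUV39H1 and SUV39H2. A match describes the sequence, and its part in any change was not tested.

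Genes that work with these enzymes were taken from a list of 58 subunits, readers and related enzymes outside the symbol rule, of which 57 were in the table and tested. Of these, 7 (12.3%) passed the test, all lower in shCHD7_2 cells, against 11.5% of all tested genes in either direction and 6.54% lower. None of them reached 1.5-fold. Among 15 COMPASS and MLL partners 3 fell, among 10 H3K9 readers and partners 1, and among 14 other methyltransferases and demethylases 2. The median log2 fold change of the 57 was -0.04.

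CBX1 (HP1 beta), a reader of H3K9 methylation, had 114.1 and 123.2 CPM in the vector samples and 87.2 and 88.4 CPM in the shCHD7_2 samples, a log2 fold change of -0.43 (SE 0.0819, edgeR adjusted p = 0.000966). PHF2, a JmjC protein that acts on H3K9, had 42.9 and 43.0 CPM against 31.8 and 29.6 CPM, a log2 fold change of -0.48 (SE 0.0937, edgeR adjusted p = 0.00127). BOD1, related to a subunit of the SETD1B complex, had 42.7 and 45.3 CPM against 31.6 CPM in both shCHD7_2 samples, a log2 fold change of -0.48 (SE 0.0929, edgeR adjusted p = 0.00133). These 3 genes passed in all 4 fits that left out 1 sample.

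PSIP1 (LEDGF), which tethers KMT2A complexes to chromatin, had 254 and 281 CPM in the vector samples and 219 and 209 CPM in the shCHD7_2 samples. It fell by 0.32 on the log2 scale (edgeR adjusted p = 0.00733), and by 0.24 without vector replicate 2 (edgeR adjusted p = 0.283). BOD1L1, a subunit of the SETD1B complex that protects replication forks, had 70.02 and 71.5 against 57.8 and 58.0 CPM and a log2 fold change of -0.29 (edgeR adjusted p = 0.0284), with adjusted p values from 0.051 to 0.256 without 1 sample. JMJD1C, a JmjC protein related to KDM3A, had 299 and 346 against 284 and 246 CPM and a log2 fold change of -0.28 (edgeR adjusted p = 0.0314). It did not pass without vector replicate 2 (-0.17 and 0.535) or without shCHD7_2 replicate 2 (-0.18 and 0.17).

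Fewer members passed the test when a sample was left out. The count was 3 (5.08%) without vector replicate 1 (KDM7A and PRDM1 among them), against 6.73% of all genes in that fit, and 3 (5.08%) without vector replicate 2 (PRDM1, PRDM12 and SETD9), against 5.04%. It was 6 (10.2%) without shCHD7_2 replicate 1, against 14.1% of all genes, and 5 (8.47%) without shCHD7_2 replicate 2, against 9.65%. The share of members was thus below that of all genes in 3 of these 4 fits, and above it, at 15.3% against 11.5%, with all samples. PRDM1 was the one member past the test in each of these fits.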

How the data were processed

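The authors deposited estimated read counts per gene (expected counts, not normalized) and FPKM values (scaled by the authors for transcript length and depth) for 15357 genes in 2 vector and 2 shCHD7_2 samples of RKO cells, from RNA captured with oligo-dT beads. Per the submitters' processing notes, Bowtie2, RSEM, DESeq2 and hg38 were used; their roles and versions, the annotation and the library's strand are not given in the sources used here. Between 13.6% and 14.7% of values per sample were not whole, which happens when a read that fits more than 1 gene is split, so genes that overlap or share sequence are uncertain. Exons of 24 of the 59 tested members overlap those of another gene, 10 of them of a gene in the table.

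Counts were rounded, filtered with filterByExpr of edgeR 4.0.16 (R 4.3.3), scaled by TMM and tested by edgeR's quasi-likelihood method for 11955 genes, whose p-values were adjusted together (Benjamini-Hochberg). The filter asked for about 0.634 CPM in 2 samples, and 58 of the 59 tested members reached it in all 4. A gene passed the test with an adjusted p under 0.05, and was called if it also changed by at least 1.5-fold. The biological coefficient of variation was 0.0579, and the F statistic gave standard errors and 95% intervals. An exact permutation test of 2 samples against 2 reaches no two-sided p under 0.333, and the fit across all genes was used. Replicates differed by more than sampling noise (chi-square per gene 3.94 and 6.05). Depth (15734679 to 16068650 counts per sample) leaves members under 60 counts with wide intervals.

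Members, classes and lists were chosen with earlier results of these data known. Genes named were CHD7, members past the test, the highest and lowest 2 members by FPKM, fixed paralogue groups and up to 10 partner genes past the test. Other members are given as values of their class. The values of 1 member and 1 partner gene that this rule covers are not reported here, and the member is left out of the plots. PRDM12 and KMT2A in the fits without 1 sample, PHF11 and the overlapping antisense genes were added after their values were seen. Locations, transcript lengths and 3′ UTRs come from GENCODE 29 (GRCh38), matched by symbol for 61 of 62 members and 11744 tested genes. Ratios of replicates use CPM plus 0.5.

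Alternatives were edgeR with library totals or with DESeq2 size factors, the DESeq2 test (1.42.0), other low-count filters (none, or a mean count of 10), a replicate block, limma 3.58.1 on log2(FPKM + 1) or log2(FPKM + 0.1) with a mean FPKM of at least 1 or no filter, and each sample left out in turn. Each of the last leaves 1 sample in an arm, which is assumed to vary like the other group. Only the main edgeR fit was tested on simulated data, with the same variation for every gene, and the alternatives were not. Python 3.11.15 with scipy 1.17.1 was used for summaries.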

Additional observations from a re-analysis of the deposited data

How the results depend on the processing

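The direction of the 9 members past the test was the same under all 14 alternatives, except that PRDM1 was below the FPKM minimum in 2 of them. How many passed varied with the choice. Against 9 members past the adjusted p and 2 called, DESeq2 gave 5 (8.47%, against 6.69% of all genes) and 1, without SETD9. No low-count filter gave 0 and 0, with 197 of all genes past the threshold. Limma gave 3 of 54 members (5.56%) and 1 on log2(FPKM + 1) and on log2(FPKM + 0.1), against 10.4% and 10.3% of all genes. Without a filter limma gave 0 and 0, with 24 of all genes past the threshold. DESeq2 size factors and a mean count of at least 10 gave 9 and 2, and library totals 6 (10.2%, against 12.4%) and 2, where EHMT2, SMYD3 and SETDB2 did not pass. Leaving out 1 sample gave 3 to 6 members past the adjusted p and 1 to 3 called. Of the 7 partner genes, no low-count filter and limma without a filter left 0, and leaving out 1 sample gave 4 to 9. The cause of these differences was not tested.

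Deviations from the group means of samples with the same replicate number had a correlation of -0.198 over genes. This cannot show whether the samples were paired, because all genes share the same 4 libraries. With a replicate block, 4 members (KDM7A, PRDM1 and SETD9 among them) and 4 partner genes passed, or 6.78% of the members against 6.32% of all genes (755). A crossed replicate block, chosen after the data were seen because of that negative correlation, passed 17 members (28.8%), 20 partner genes and 3751 of all genes (31.4%). The median of the members stayed between -0.018 and 0.065 under all alternatives. Of the 50 members that did not pass, 26 changed sign and 9 passed under at least 1 alternative. Apart from KMT2A and PRDM12, these 9 passed only with the crossed replicate block. PRDM1 and other members at low counts are limited by depth.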
